A study of Mus musculus with 8 samples.

Results

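The genes described here encode the matrix metalloproteinases (Mmp), the Adamts proteases and the tissue inhibitors of metalloproteinases (Timp). They were chosen by symbol alone, as every Mmp, Adamts or Timp1 to Timp4 symbol in the deposited tables, which gave 46 of 23420 gene symbols: 23 Mmp, 19 Adamts and 4 Timp genes. Expression was measured by RNA-seq in mouse embryonic fibroblasts of a C57BL6/N background, all of which expressed the adenoviral oncoprotein E1A and HRasV12, an activated Ras. The cells were either wild-type for Neat1 or Neat1-/- (here Neat1 null), with 4 libraries each, grown in medium with fetal calf serum. Neat1 is the long noncoding RNA around which nuclear paraspeckles form, and the series names it a p53-inducible suppressor of transformation. Whether libraries with the same genotype were made from different embryos or cultures is not in the labels, and p-values measure only the spread between these libraries. How the Neat1 allele was made, and whether the lines were pooled or clonal, is not in them either.

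Matrix metalloproteinases are zinc-dependent endopeptidases made as inactive precursors, and most are secreted while the membrane-type members stay on the cell surface. They cut collagens, laminins, proteoglycans and other matrix proteins, and in fibroblasts several of them are known to be induced by growth factors and oncogenes through the AP-1 transcription factors. Adamts proteases are secreted relatives that carry thrombospondin repeats and process procollagens, aggrecan, versican and other matrix proteins. Timp proteins bind the active site of these enzymes. Timp1 inhibits most secreted Mmps but is a weak inhibitor of several membrane-type Mmps, Timp2 inhibits membrane-type Mmps as well, and Timp3 also inhibits Adamts proteases.

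Levels are given in CPM (counts per 1000000 assigned counts, with library sizes scaled by edgeR's TMM factors), and in CPM per kb of exon sequence where genes are compared with each other or summed. A gene was called when edgeR's quasi-likelihood test gave an adjusted p under 0.05 over all 13316 genes tested. A positive log2 fold change means a higher level in Neat1 null libraries. Neat1 itself had 138, 588, 752 and 1318 CPM in wild-type libraries 1 to 4 and 6.91, 11.3, 7.90 and 6.12 CPM in Neat1 null libraries 1 to 4, in the direction that the labels give. The libraries held 19651035 to 38950207 counts assigned to genes, with the lowest total in Neat1 null library 1.

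Several features of whole libraries moved with genotype, and their part in the results below was not tested except where a value is given. By Xist and Y-linked genes the 4 wild-type libraries and Neat1 null library 3 were female and the other 3 were male. Ribosomal protein genes took 5.99% to 7.05% of counts in wild-type and 8.42% to 25.4% in Neat1 null libraries. The TMM factors, by which every CPM value is scaled, were 1.08 to 1.33 in wild-type and 0.567 to 1.05 in Neat1 null libraries. The lowest was that of Neat1 null library 1. Ambiguous reads made up 1.09% to 1.22% and 1.34% to 1.76% of counts. The slope on log2 exon length of each gene's log2 CPM, taken as the deviation from its mean over the libraries, was 0.137 to 0.248 in wild-type and -0.479 to 0.00698 in Neat1 null libraries, so that shorter genes stood higher, relative to those means, in most of the latter. Of 10 fibroblast markers the summed level was 1321 to 2480 CPM in wild-type and 1939 to 3296 CPM in Neat1 null libraries, most of it Vim, while Lum and Dcn were near 0 in both groups (0.0124 and 0.300 CPM in wild-type) and 1 marker, Pdgfra, fell (log2 fold change -3.59, SE 0.51). The 7 macrophage markers summed to 9.49 to 102 and 5.48 to 18.8 CPM. Most of this was Cd68, which fell (log2 fold change -2.47, SE 0.64), while Ptprc and Tyrobp had 0 counts. The 6 endothelial markers summed to 5.03 to 44.2 and 0.359 to 2.60 CPM, and the 6 neutrophil markers to at most 0.0973 CPM in any library. Most of the endothelial sum was Emcn (14.1 ± 18.8 and 0.00784 ± 0.0157 CPM, not tested) and Kdr (4.53 ± 3.48 and 1.09 ± 0.771 CPM, not called by edgeR). Pecam1, Cdh5, Tek and Tie1 had group means of at most 0.346 CPM. The 6 epithelial markers summed to 194 to 632 and 249 to 3180 CPM, with Krt14 at 0, the 6 chondrocyte markers to 74.3 to 119 and 51.7 to 88.8 CPM, with Matn1 at 0, and the 6 muscle markers to 3.10 to 15.4 and 2.73 to 15.6 CPM, with Myod1 and Myf5 at 0. The largest part was, in that order, Krt18 (313 ± 198 and 1132 ± 1373 CPM), Sox9 (86.1 ± 19.8 and 65.2 ± 16.4 CPM) and Des (10.5 ± 5.29 and 8.03 ± 5.81 CPM). None of these was called by edgeR.

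Of the 46 genes, 28 passed the low-count filter and were tested. Of these, 2 rose in Neat1 null libraries (Timp1 and Mmp23) and 10 fell, namely 4 Mmp genes and 6 Adamts genes, where 17.7% of all genes tested were called in either direction. The share that fell was 35.7% of the tested members, against 7.72% over all genes tested, and the share that rose was 7.14% against 9.97%. The median log2 fold change was -1.11 over these genes and -0.06 over all genes tested. Since 7 of the tested genes reached the count limit in all wild-type but not all Neat1 null libraries, the counts were also taken over genes above it in every library. Of 19 such members 7 fell and 2 rose (36.8% lower, against 6.44% of 11796 genes). All 12 calls ended, and edgeR called 0 members, when wild-type library 3 or 4 was left out, or Neat1 null library 3. Over all genes tested, 18, 11 and 13 were called in these 3 fits, against 2356 with all 8 libraries. At an unadjusted p under 0.05, 11 to 13 members were lower and 2 to 3 higher in them, as were 3342 to 4226 of all genes in either direction. DESeq2, over all 8 libraries, called 14 members lower and 2 higher, where it called 1630 genes lower and 1960 higher over all genes. After a correction of each library for the length and GC content of genes, 9 of the 10 lower calls remained (all but Adamts6) and 0 members rose (2 higher at an unadjusted p under 0.05), where 10.9% of 13213 genes were called. A fit with library sex as a covariate sets only Neat1 null library 3, the female one, against the wild-type libraries. Its genotype log2 fold changes thus rest on 1 Neat1 null library, and only they are given below. None of the 12 called members changed sign in it. In bulk RNA, fewer cells of a type and less RNA per cell cannot be told apart.

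Among the inhibitors, Timp1 rose in Neat1 null libraries, whereas Timp2 and Timp3 were not called and Timp4 had 0 counts in all 8 libraries. Timp1 (GRCm38 chrX:20870166-20874735, plus strand) had 250, 79.1, 246 and 74.0 CPM in wild-type libraries 1 to 4 and 1396, 599, 430 and 831 CPM in Neat1 null libraries 1 to 4. Every Neat1 null library lay above every wild-type library, and the wild-type libraries fell into a higher pair (1 and 3) and a lower pair (2 and 4). The means were 162 ± 99.0 and 814 ± 421 CPM (SD, n = 4 each), and the log2 fold change 2.33 (SE 0.53, adjusted p = 0.0185). Timp1 is X-linked and short (888 exon bases). The female Neat1 null library, with 430 CPM, was also above the 4 female wild-type libraries. With library sex as a covariate, a value that rests on this Neat1 null library alone, the log2 fold change was 1.41. After the length and GC correction it was 1.31 (adjusted p = 0.107), so Timp1 was not called in that fit. With any 1 library left out it lay between 1.94 and 2.63.

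Timp2, the inhibitor that also takes part in the activation of pro-Mmp2 by Mmp14, had 77.9, 104, 242 and 170 CPM in wild-type and 134, 68.9, 137 and 102 CPM in Neat1 null libraries 1 to 4. The ranges overlapped in part, with wild-type libraries 3 and 4 above all Neat1 null libraries (log2 fold change -0.43, SE 0.40, adjusted p = 0.460). Timp3, which binds to the matrix, had 6.81, 11.3, 48.5 and 26.6 CPM in wild-type and 18.1, 24.8, 6.91 and 10.2 CPM in Neat1 null libraries (log2 fold change -0.64, SE 0.56, adjusted p = 0.428). Its highest level was in wild-type library 3, without which the log2 fold change was 0.0090. Per kb of exon, the order in wild-type libraries was Timp1 (183 ± 111 CPM per kb), Timp2 (38.2 ± 18.9) and Timp3 (2.86 ± 2.31), and in Neat1 null libraries 917 ± 475, 28.4 ± 8.19 and 1.84 ± 0.991. Timp1 made up 63.9% to 93.1% of the summed Timp level in wild-type libraries and 93.1% to 97.7% in Neat1 null libraries.

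Summed over each family, the inhibitors, mostly Timp1, stood high against the proteases in the Neat1 null libraries. The length and GC correction, under which Timp1 was not called, and the sex covariate were not applied to these sums. The summed Timp level was 303, 117, 345 and 130 CPM per kb in wild-type libraries 1 to 4 and 1609, 696, 521 and 963 in Neat1 null libraries 1 to 4. The summed Mmp level overlapped between the groups, with 33.0, 33.0, 90.2 and 61.1 CPM per kb against 74.7, 44.1, 39.7 and 36.3. The summed Adamts level did not overlap, with 15.4, 26.6, 38.8 and 30.4 CPM per kb against 9.10, 12.4, 9.29 and 10.6. The ratio of summed Timp to summed protease level was 6.25, 1.97, 2.67 and 1.43 in wild-type and 19.2, 12.3, 10.6 and 20.5 in Neat1 null libraries. On the log2 scale the protease to inhibitor ratio was lower by 2.53 in Neat1 null libraries (-3.91 ± 0.469 against -1.39 ± 0.916, SD, n = 4 each). No p is given for these sums, because the genes were chosen with earlier results of these data known. With Timp1 and Mmp14, the most abundant inhibitor and protease, both left out, the difference was -0.46. Mmp14 had a larger mean share of the summed protease level where Neat1 was null (38.2%, against 20.0% for wild-type). Leaving it out thus lowered the protease side more there. The value of -0.46 therefore does not show what remained without Timp1 alone, which was not tested.

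**Figure D1:**
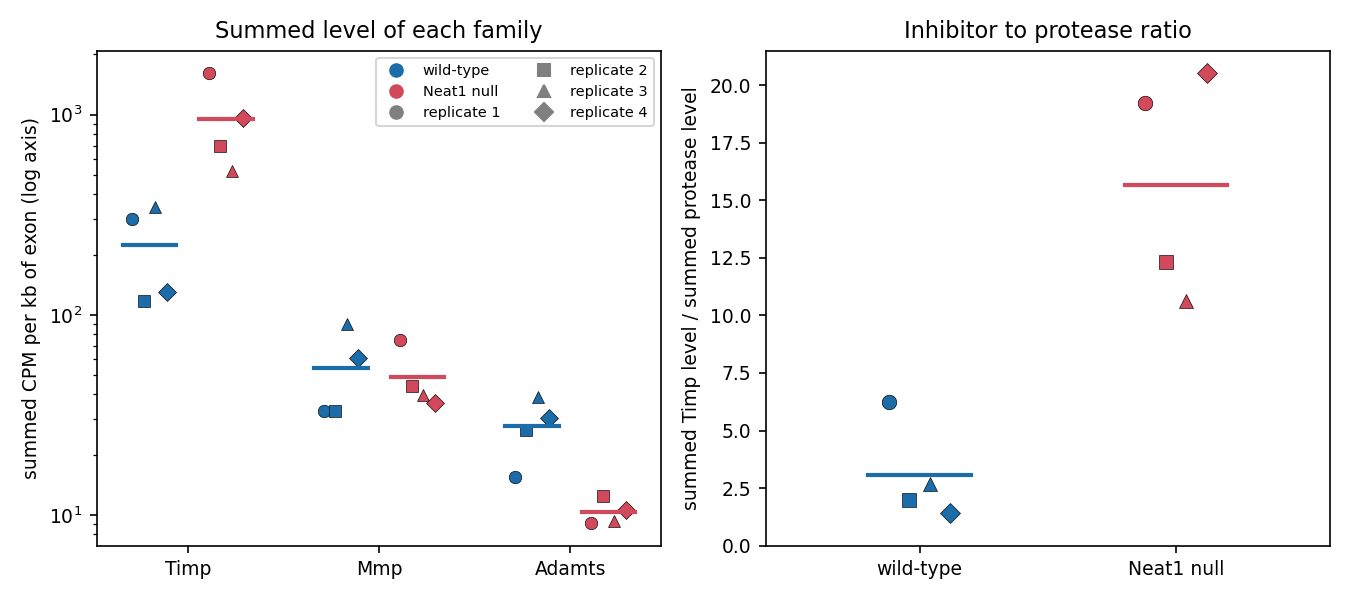
Left, CPM per kb of exon summed over the Timp, Mmp and Adamts genes in each library (log axis). Right, the ratio of the summed Timp level to the summed Mmp and Adamts level (linear axis from 0). Points are libraries, shapes replicate numbers and bars group means. The Timp sums, which are mostly Timp1, and the ratios are higher in all Neat1 null libraries (ratios 10.6 to 20.5 against 1.43 to 6.25), the Adamts sums are lower and the Mmp sums overlap.

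Among the membrane-anchored Mmps, none fell by edgeR's test. Mmp14, the membrane-type collagenase that activates pro-Mmp2, was the most abundant protease per kb in the mean of all libraries. It had 86.5, 69.3, 122 and 78.8 CPM in wild-type and 216, 133, 74.9 and 124 CPM in Neat1 null libraries 1 to 4. The groups overlapped, with Neat1 null library 1 highest and Neat1 null library 3 within the wild-type range, and the gene was not called (log2 fold change 0.62, SE 0.38, adjusted p = 0.245). With sex as a covariate, which leaves Neat1 null library 3 alone against wild-type, its log2 fold change was -0.25. Mmp14 made up 14.5% to 30.0% of the summed protease level in wild-type and 25.7% to 44.3% in Neat1 null libraries.

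Mmp23, a protease whose precursor is held in the membrane by an amino-terminal anchor, rose. It had 3.31, 3.27, 10.5 and 3.43 CPM in wild-type and 71.0, 23.4, 31.1 and 6.05 CPM in Neat1 null libraries 1 to 4. Neat1 null library 4 lay below wild-type library 3, so the groups overlapped, and the Neat1 null libraries spread widely. The log2 fold change was 2.68 (SE 0.64, adjusted p = 0.0192). It was 1.52 (adjusted p = 0.199) without Neat1 null libraries 1 and 3, and 2.08 (adjusted p = 0.0561) after the length and GC correction. With sex as a covariate it was 2.60. The other membrane-type genes were not called: Mmp15 had 1.76 ± 1.18 CPM (wild-type) and 4.61 ± 3.05 CPM (Neat1 null), Mmp16 had 3.99 ± 1.20 and 3.55 ± 1.21 CPM, and Mmp17 had 2.22 ± 0.704 and 2.27 ± 1.38 CPM. Mmp25, anchored by glycosylphosphatidylinositol, had 7.57 ± 4.96 and 2.10 ± 1.10 CPM (log2 fold change -1.83, adjusted p = 0.0548 by edgeR, and 0.0172 by DESeq2, which called it).

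Of the secreted Mmps outside chromosome 9, Mmp19 and Mmp11 fell. Mmp19, a broadly acting matrix protease, had 1.78, 4.17, 14.2 and 12.0 CPM in wild-type and 0.898, 1.06, 1.20 and 0.910 CPM in Neat1 null libraries 1 to 4. The groups did not overlap, the Neat1 null libraries lay close together and wild-type library 1 was nearest to them (log2 fold change -2.97, SE 0.63, adjusted p = 0.0180). With sex as a covariate the log2 fold change was -2.74. Mmp11 (stromelysin-3), which is activated inside the cell by furin, had 18.0, 41.0, 37.0 and 42.7 CPM in wild-type and 11.9, 12.4, 20.8 and 16.0 CPM in Neat1 null libraries. Wild-type library 1 lay inside the Neat1 null range (log2 fold change -1.18, SE 0.37, adjusted p = 0.0396), and it was called in only 1 of the 8 fits that each omit a library. Mmp28 and the gelatinase Mmp2 were not called, with 5.03 ± 2.78 and 3.26 ± 3.34 CPM in wild-type against 1.86 ± 1.33 and 2.50 ± 1.67 CPM. The gelatinase Mmp9, with 7, 7, 77 and 19 counts in wild-type and 2, 5, 8 and 2 counts in Neat1 null libraries, was too low to be tested.

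**Figure D2:**
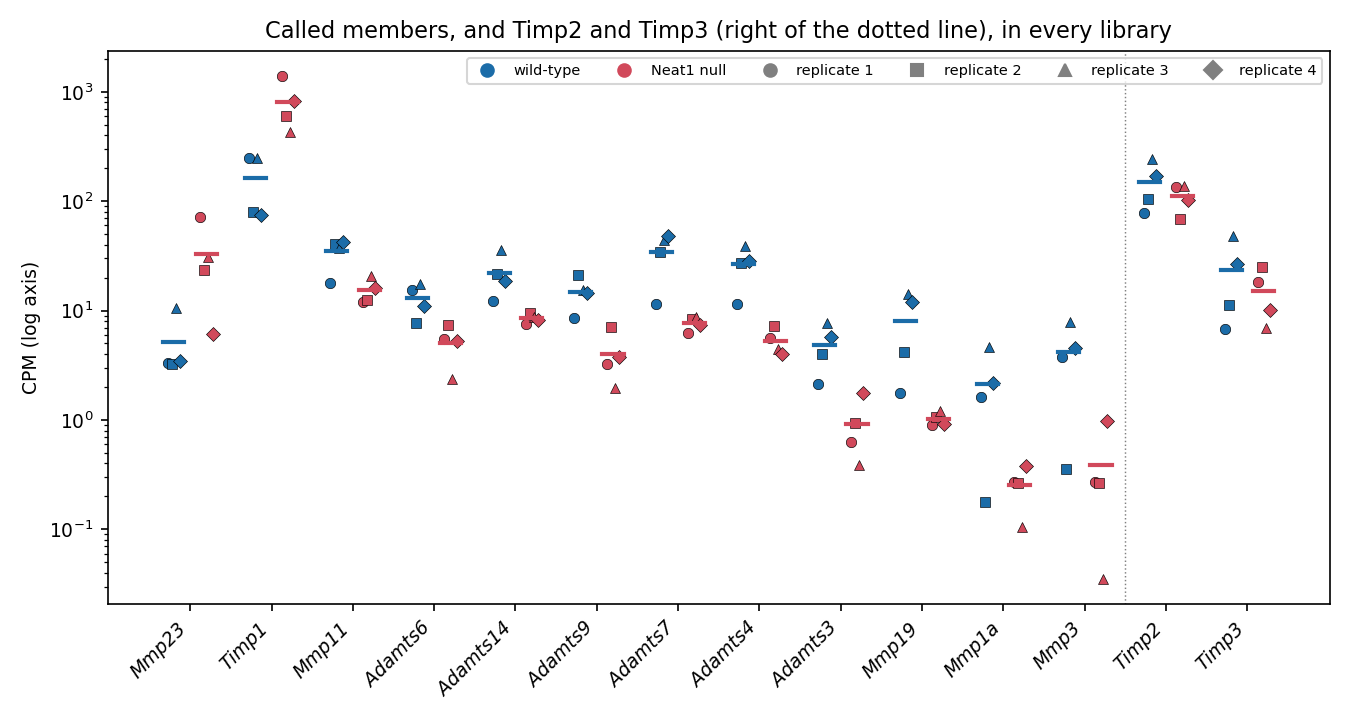
CPM (log axis) in every library for the 12 called genes, ordered by log2 fold change, and for Timp2 and Timp3. Points are libraries, shapes replicate numbers and bars group means. The Neat1 null points of Timp1 lie above all wild-type points (430 to 1396 against 74.0 to 250 CPM), and wild-type library 2 is the lowest of the wild-type points of Mmp3 and Mmp1a.

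The remaining 10 Mmp genes lie side by side on chromosome 9, from Mmp13 (GRCm38 chr9:7272514-7283331) to Mmp7 (chr9:7692090-7699585), and include the interstitial collagenases, the stromelysins and the macrophage elastase Mmp12. The 3 tested genes of this cluster are neighbours of one another. Mmp3 (stromelysin-1, chr9:7445822-7455975) had 3.79, 0.353, 7.87 and 4.57 CPM in wild-type and 0.269, 0.264, 0.0353 and 0.972 CPM in Neat1 null libraries 1 to 4 (log2 fold change -3.38, SE 0.92, adjusted p = 0.0253). Mmp1a, a collagenase gene that the annotation lists as a polymorphic pseudogene (chr9:7464141-7476869), had 1.62, 0.177, 4.63 and 2.16 CPM in wild-type and 0.269, 0.264, 0.106 and 0.376 CPM in Neat1 null libraries (log2 fold change -3.06, SE 0.83, adjusted p = 0.0250). Both fell, and in both wild-type library 2 lay within the Neat1 null range while the other 3 wild-type libraries were above it. The Neat1 null levels rest on 3, 9, 1 and 31 counts of Mmp3 and 3, 9, 3 and 12 counts of Mmp1a, so the size of both falls is uncertain. With sex as a covariate the log2 fold change of Mmp1a was -4.30.

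Mmp10 (stromelysin-2, chr9:7502352-7510240) had the same order within the wild-type group, with 6.73, 0.729, 54.0 and 30.4 CPM, against 2.51, 6.36, 1.45 and 4.42 CPM in Neat1 null libraries. Here wild-type library 2 was the lowest of all 8 libraries, and the gene was not called (log2 fold change -2.63, SE 1.02, adjusted p = 0.0950). Without wild-type library 2 it was called (log2 fold change -3.02, adjusted p = 0.0191). Of the genes too low to test, Mmp13 (collagenase-3) had 6, 2, 131 and 76 counts in wild-type and 3, 3, 1 and 2 counts in Neat1 null libraries. Mmp1b had 16, 1, 30 and 6 counts against 0, 1, 0 and 2. Mmp12 had 4, 0, 17 and 8 counts against 1, 17, 0 and 3. Among the wild-type libraries, library 3 was thus highest and library 2 lowest for all 6 of these genes. Mmp12 differed from the other 5 in that Neat1 null library 2 had as many counts as wild-type library 3. Outside the cluster, wild-type library 3 was also highest and library 2 lowest, in CPM, for Mmp14, Mmp23, Mmp2 and Adamts6, among others. The other 4 cluster genes, Mmp8, Mmp27, Mmp20 and Mmp7, had 0 counts in all libraries, which allows up to 3 counts each, or 0.0663 to 0.269 CPM by library. Mmp1a and Mmp1b share 8.15% and 11.8% of their 50-base transcript stretches with each other, and Mmp3 and Mmp10 7.99% and 8.37%, so part of these counts is uncertain.

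**Figure D3:**
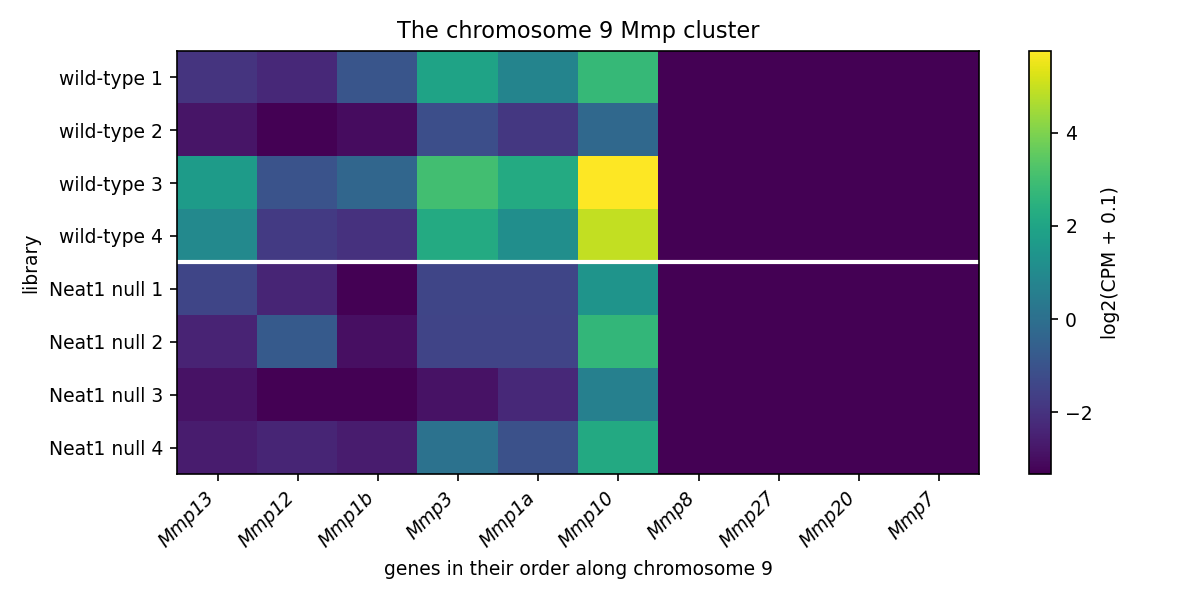
Log2(CPM + 0.1) of the 10 chromosome 9 Mmp genes, in their order along the chromosome, in the 8 libraries (rows, wild-type above the white line). Wild-type libraries 3 and 4 are brightest at Mmp10 (54.0 and 30.4 CPM), and the 4 genes at the right have 0 counts in every library.

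The 6 detected cluster genes had their highest and their lowest wild-type level in the same libraries, as did some members outside the cluster. The stretches directly before the start sites of these 6 genes are shown. Each is the 120 bases upstream of the start (RefSeq, GRCm38.p6; for Mmp12 the second of its 2 starts), written along the gene's strand, with the AP-1 element in capitals, the sequence TGANTCA that Fos and Jun family dimers bind.
Mmp13 (chr9:7272394-7272513, plus strand): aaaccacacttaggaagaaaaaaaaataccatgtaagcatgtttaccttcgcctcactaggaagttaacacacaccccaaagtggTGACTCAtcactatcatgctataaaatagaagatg
Mmp12 (chr9:7347254-7347373, plus strand): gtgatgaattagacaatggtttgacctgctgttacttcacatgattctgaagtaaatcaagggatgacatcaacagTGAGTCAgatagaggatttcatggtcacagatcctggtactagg
Mmp1b (chr9:7388027-7388146, minus strand): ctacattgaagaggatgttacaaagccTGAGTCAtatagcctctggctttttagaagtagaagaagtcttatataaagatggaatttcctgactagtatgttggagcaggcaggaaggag
Mmp3 (chr9:7445702-7445821, plus strand): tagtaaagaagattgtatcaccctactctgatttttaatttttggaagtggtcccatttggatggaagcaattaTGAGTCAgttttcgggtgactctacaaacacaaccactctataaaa
Mmp1a (chr9:7464021-7464140, plus strand): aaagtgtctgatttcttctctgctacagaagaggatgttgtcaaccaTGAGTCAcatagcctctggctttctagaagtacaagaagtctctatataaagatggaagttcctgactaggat
Mmp10 (chr9:7502222-7502341, plus strand): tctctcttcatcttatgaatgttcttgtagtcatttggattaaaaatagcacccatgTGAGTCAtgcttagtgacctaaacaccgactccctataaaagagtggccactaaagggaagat

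The AP-1 letters were found in a window of each of these 6 genes, for Mmp12 only at the second start and not at the first. Their first base lay 35 bases before the start in Mmp13, 44 in Mmp12, 46 in Mmp3, 63 in Mmp10, 73 in Mmp1a and 93 in Mmp1b. The search covered the 250 bases before and 50 bases from each start on, and 32 of the 46 genes had such a window. Of the 10 cluster genes 8 held the AP-1 letters, Mmp7 and Mmp20 among them, which had 0 counts. None of the 8 other Mmp, 10 Adamts and 4 Timp genes with a window held them, against 7.81% of all 32851 windows and 8.97% of genes. Mmp14 and Mmp23, with the same highest and lowest wild-type library as the 6 genes, were among those without them. The TATA box letters TATAAA were found in 9 of the 10 cluster genes, and in 1 of the 8 other Mmp, 1 of the 10 Adamts and 0 of the 4 Timp genes, against 15.7% of genes. The PEA3 letters AGGAAG, bound by ETS factors, were found in 7 cluster genes, 3 other Mmp, 2 Adamts and 3 Timp genes, against 38.4% of genes. The 3 strings were searched separately, and matches may share bases at their ends. A match describes the letters only.

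Among the Adamts genes, all 12 tested had a negative log2 fold change, with a median of -1.35, and 6 of them fell (50%, against 7.72% of all genes tested). Adamts3, Adamts5, Adamts12 and Adamts20 reached the count limit in all wild-type but not all Neat1 null libraries, so their negative sign may depend on the filter. Of those above it in every library, Adamts4, Adamts6, Adamts7, Adamts9 and Adamts14 fell, and Adamts1, Adamts8 and Adamts10 were negative but not called. Of the 12 genes, edgeR gave 8 lower and 0 higher at an unadjusted p under 0.05, where 2309 of all 13316 genes were lower and 2480 higher. DESeq2 called 7 of the Adamts genes lower and 0 higher, where it called 1630 lower and 1960 higher over all genes. For 7 of the 12 genes (58.3%) the groups did not overlap, against 22.6% of all genes tested. These 7 include Adamts3 and Adamts12, which were below the count limit in some Neat1 null libraries, so this share may depend on the filter too. Under the length and GC correction 11 of the 12 were negative, with a median of -0.93, and 5 fell, as did 749 of 13213 genes. These are long genes, with a median of 7040 exon bases against 4462 over all genes tested.

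The aggrecan- and versican-cutting Adamts4 had the smallest p among the Adamts genes. It had 11.6, 27.4, 39.3 and 28.3 CPM in wild-type and 5.57, 7.16, 4.41 and 4.01 CPM in Neat1 null libraries 1 to 4, without overlap. The difference was -2.33 on the log2 scale (SE 0.42, adjusted p = 0.0180), and -2.41 after the length and GC correction. Adamts9, another versican-cutting enzyme, had 8.51, 21.0, 15.4 and 14.5 CPM against 3.23, 7.13, 1.98 and 3.73 CPM, also without overlap (log2 fold change -1.88, SE 0.47, adjusted p = 0.0204). It has 15048 exon bases, and its log2 fold change was -1.31 after the correction (adjusted p = 0.0477). Adamts1, Adamts5 and Adamts20, which also cut versican, were not called, with 16.7 ± 6.22, 1.15 ± 0.352 and 2.03 ± 0.801 CPM in wild-type against 8.12 ± 4.43, 0.820 ± 0.824 and 1.09 ± 0.623 CPM.

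Adamts7, which cuts cartilage oligomeric matrix protein, had 11.4, 34.1, 44.0 and 47.8 CPM in wild-type and 6.29, 8.30, 8.78 and 7.43 CPM in Neat1 null libraries 1 to 4. The Neat1 null libraries lay within a narrow band below all wild-type libraries, of which library 1 was the lowest (log2 fold change -2.15, SE 0.43, adjusted p = 0.0180). With sex as a covariate the log2 fold change was -1.97. Its relative Adamts12 had 3.66, 3.89, 4.12 and 3.70 CPM in wild-type and 0.359, 1.82, 1.06 and 2.67 CPM in Neat1 null libraries. It was not called although the groups did not overlap (log2 fold change -1.35, SE 0.57, adjusted p = 0.103 by edgeR, and 0.0446 by DESeq2).

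Of the procollagen amino-propeptidases, Adamts3 and Adamts14 fell and Adamts2 was too low to test, with at most 27 counts in a library. Adamts3 had 2.15, 4.02, 7.64 and 5.71 CPM in wild-type and 0.629, 0.938, 0.388 and 1.76 CPM in Neat1 null libraries 1 to 4 (log2 fold change -2.37, SE 0.60, adjusted p = 0.0218). Adamts14 had 12.2, 21.7, 36.1 and 18.7 CPM against 7.54, 9.47, 8.82 and 8.16 CPM (log2 fold change -1.38, SE 0.39, adjusted p = 0.0283). Neither overlapped between the groups. With sex as a covariate the log2 fold change was -3.64 for Adamts3 and -1.33 for Adamts14.

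Adamts6 and Adamts10 are a related pair known for roles in fibrillin microfibrils, of which Adamts6 fell. It had 15.5, 7.71, 17.6 and 11.0 CPM in wild-type and 5.48, 7.30, 2.36 and 5.27 CPM in Neat1 null libraries 1 to 4, without overlap (log2 fold change -1.34, SE 0.44, adjusted p = 0.0482). Its call lay at the threshold and was lost with RLE size factors (adjusted p = 0.0523) and after the length and GC correction (log2 fold change -0.83, adjusted p = 0.104). It was also lost in edgeR fits without the low-count filter (adjusted p = 0.0549) and without the robust option (0.0518). Of the 8 fits that each omit a library, 2 called it. Adamts10, the most abundant Adamts gene per kb in the mean of all libraries (though below Adamts4 and Adamts7 in the wild-type mean), had 19.8, 35.5, 53.9 and 41.1 CPM against 21.1, 22.9, 28.3 and 22.4 CPM and was not called (log2 fold change -0.67, SE 0.35, adjusted p = 0.183). Adamts8 had 2.39 ± 1.46 and 2.20 ± 0.998 CPM. The remaining Adamts genes, Adamts13, Adamts15, Adamts16, Adamts17, Adamts18 and Adamts19, had at most 12 counts in any library, as did Mmp21 and Mmp24.

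**Figure D4:**
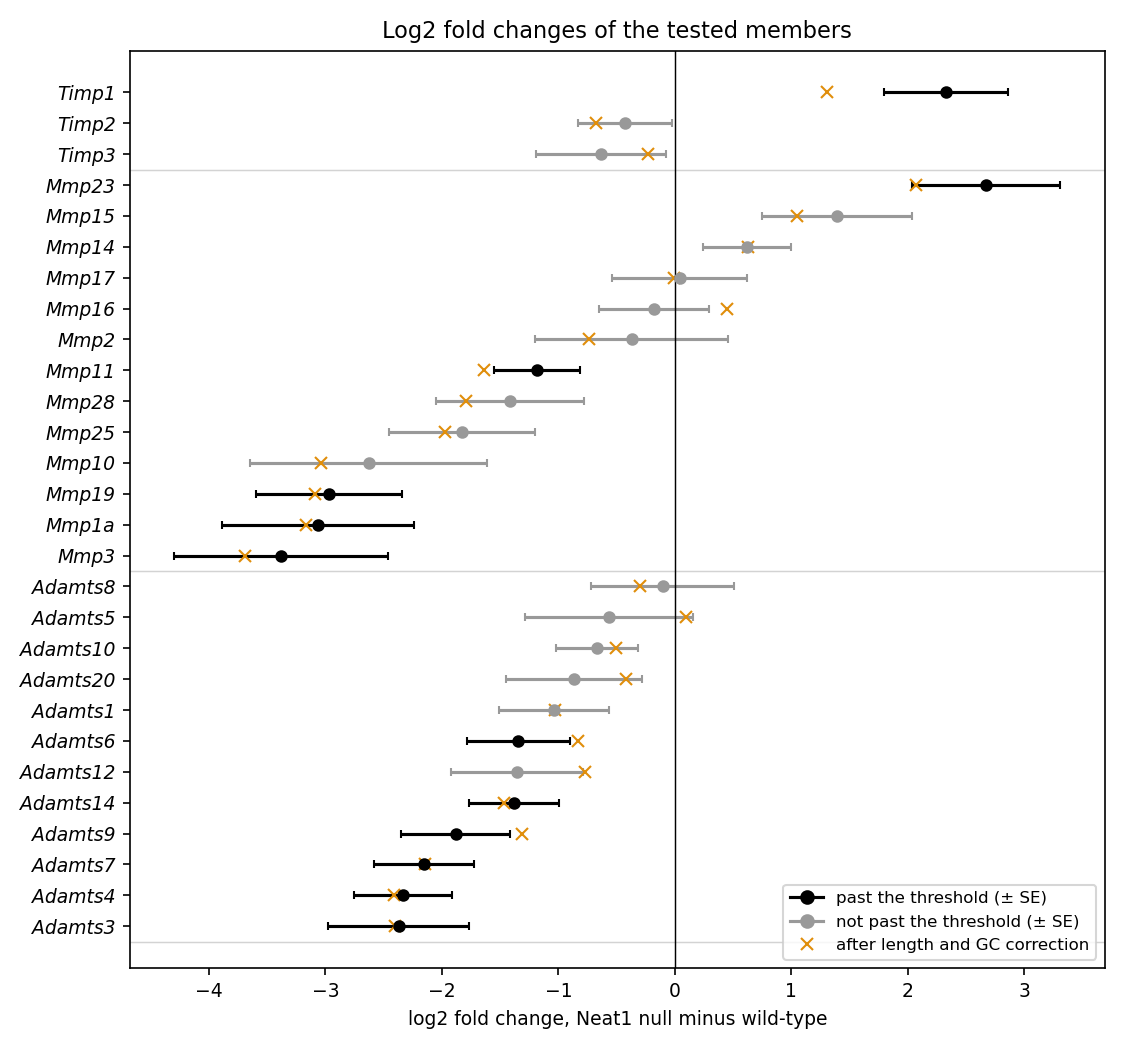
Log2 fold change (Neat1 null minus wild-type) of the 28 tested genes by family, with SE bars; black points passed the threshold. Crosses are the values after the length and GC correction, which moved Timp1 from 2.33 to 1.31 and Adamts9 from -1.88 to -1.31 and left Adamts4 near its value.

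Related genes outside these families were taken from lists made by their known roles. Over all genes tested, 7.72% fell, and the counts of these lists are to be read against that share. Among 14 tested membrane and secreted regulators of metalloproteinases 4 fell and 0 rose (1 higher at an unadjusted p under 0.05, and 1 by DESeq2), with a median log2 fold change of -0.73. Reck, a membrane-anchored inhibitor of Mmp14, Mmp2 and Mmp9, fell from 25.6 ± 10.7 to 6.22 ± 2.93 CPM (log2 fold change -2.03, SE 0.46, adjusted p = 0.0185), opposite to Timp1. Lrp1, the endocytic receptor that clears proteases and their inhibitors, fell from 488 ± 214 to 160 ± 91.7 CPM (log2 fold change -1.61, SE 0.46), and not past the threshold after the length and GC correction (adjusted p = 0.110). Cav1 and Spock3 fell by 1.62 and 3.34 on the log2 scale. Furin, the convertase that activates Mmp11 and the membrane-type Mmps, was not called, with 225 ± 21.0 and 202 ± 92.5 CPM.

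Of 10 tested Adam genes, relatives of the Adamts genes that are anchored in the membrane, 7 fell and 0 rose (0 higher also at an unadjusted p under 0.05 and by DESeq2), with a median of -1.67, and 3 fell after the length and GC correction. Adam8 fell from 23.4 ± 17.8 to 2.37 ± 1.11 CPM, Adam33 from 2.57 ± 3.04 to 0.165 ± 0.116 CPM, Adam19 from 29.8 ± 12.3 to 8.22 ± 5.19 CPM and Adam9 from 130 ± 26.0 to 51.8 ± 20.6 CPM. The 7 include Adam22 and Adam23, which lack the catalytic zinc-binding site and are not proteases. Of 3 tested Adamts-like genes Adamtsl1 fell (log2 fold change -2.67, SE 0.53). Of 23 tested matrix substrates 2 fell, a share near that of all genes tested, and 0 rose (5 lower and 0 higher at an unadjusted p under 0.05, and 4 and 0 by DESeq2): versican (Vcan), from 143 ± 52.2 to 38.9 ± 21.2 CPM, and Col6a1, from 75.5 ± 66.6 to 15.8 ± 5.09 CPM. Of 6 tested plasminogen system genes 0 were called by edgeR or DESeq2 (2 lower and 0 higher at an unadjusted p under 0.05). Plau, the urokinase gene, had 82.6 ± 38.4 and 111 ± 84.5 CPM. In the 3 fits that ended the members' calls, and in the one without Neat1 null libraries 1 and 3, edgeR called 0 genes of these 5 lists.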

How the data were processed

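RNA-seq read counts were used as the authors deposited them, 1 table per library with raw counts per gene symbol. Libraries were made from total RNA with a stranded Illumina kit, per the labels' protocols. The submitters' processing notes name CASAVA 1.8, STAR, DESeq2 and the mm10 build, without roles; the counter, its strand setting and annotation are not given in the sources used here. Reads outside genes (5.48% to 15.7% of counts) and ambiguous reads (1.09% to 1.76%) were left out of library sizes and tests. Libraries held 19651035 to 38950207 assigned counts. Members and lists were chosen with earlier results of these data known. Genes were kept with filterByExpr (minimum count 10) of edgeR 4.0.16 in R 4.3.3, scaled by TMM and tested with its robust quasi-likelihood F test (2-sided, genotype only, Benjamini-Hochberg over 13316 genes). The SE is the log2 fold change divided by the square root of F. Intervals from 0 counts cover counting error only.

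Every matched symbol is accounted for. Values per library are given for the Timps, called members and the 8 highest tested members per kb. Genes of the related-gene lists are named when called, up to 4 per list with the smallest p. Cell type markers are named where they make up most of a sum or were called, as are some that are at or near 0. Furin, Plau, Adam22, Adam23, Mmp9, Mmp13, Mmp1b and Mmp12, and Adamts12 were given values for their role or place after the values were seen, and the 6 printed promoter stretches were chosen so as well. Exon lengths, GC content (longest transcript) and positions came from GENCODE M21 on GRCm38, also called mm10; 93.0% of symbols matched directly, 5.46% by synonym. Promoters came from RefSeq (GRCm38.p6), and 14 members had no entry used. Exons of Adamts4, Adamts7, Adamts8, Adamts9, Mmp11, Mmp12, Mmp19, Mmp1b, Mmp24, Mmp28, Mmp7, Timp3 and Timp4 overlap a gene on the other strand, which adds uncertainty to their counts.

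Alternatives were RLE and upper-quartile factors, 2 other filters, a non-robust fit, DESeq2 1.42.0, each library left out, the replicate number as a block, the length and GC correction (splines with 5 degrees of freedom, as offsets), a sex covariate, and leaving out Neat1 null libraries 1 and 3 together. On simulated counts for this comparison (13216 genes, 50 changed per fold) the test recovered 8% of genes changed 2-fold, 58% changed 4-fold, 88% changed 8-fold and 90% changed 16-fold, and 4.69% of 128 calls were false. The simulated counts held no shift of whole libraries with gene length, ribosomal share or sex. They also gave far fewer calls than the 2356 in the data, so these shares may not carry over. No libraries were duplicates: between same-genotype libraries the chi-square statistic per degree of freedom was 59.3 or more.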

Additional observations from a re-analysis of the deposited data

Results flagged for a closer look

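In 56 groups of 4 libraries (28 tested genes in each genotype), 2 values lay far from the other 3 by Dixon's criterion, which chance alone would give in about 1 in 20 groups. Wild-type library 3 had 10.5 CPM of Mmp23 against 3.27 to 3.43 CPM in the other wild-type libraries. Neat1 null library 1 had 0.718 CPM of Adamts8 against 2.57 to 2.87 CPM in the other Neat1 null libraries.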

How the results depend on the processing

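No called gene of the 12 changed sign in any alternative run. Over all genes tested, 2356 were called (1328 higher, 1028 lower), against 3590 with DESeq2, 1446 (697 higher, 749 lower) with the length and GC correction, 7 without Neat1 null libraries 1 and 3, and 11 to 2965 with any 1 library left out (18 and 11 without wild-type libraries 3 and 4, and 13 without Neat1 null library 3). Upper-quartile factors shifted the median over all genes by -0.18 (log2) and the split to 1036 higher and 1428 lower; all 12 Adamts genes stayed negative, with a median of -1.52, and 2 members were higher and 11 lower. Members called higher numbered 0 after the length and GC correction and 0 without Neat1 null libraries 1 and 3. At an unadjusted p under 0.05 each of these edgeR fits gave 2. With any 1 library left out, 0 to 3 members were called higher. Members called lower numbered 0 without Neat1 null libraries 1 and 3 (12 at an unadjusted p under 0.05). With any 1 library left out they numbered 0 to 11, with 6 left without Neat1 null library 1. The cause was not tested. The log2 protease to inhibitor difference was -2.95 to -2.23 with any 1 library left out, and -0.46 with Mmp14 and Timp1 left out together. Leaving out Timp1 alone was not tested.

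Uncalled genes near 0 changed sign and stayed uncalled. With any 1 library left out the log2 fold change ranged from -0.98 to 0.0090 for Timp3, -0.33 to 0.032 for Mmp16, -0.32 to 0.34 for Mmp17, -0.76 to 0.59 for Mmp2 and -0.41 to 0.31 for Adamts8. After the length and GC correction it was 0.099 for Adamts5, 0.45 for Mmp16 and -0.0066 for Mmp17. With sex as a covariate it was -0.25 for Mmp14, 0.30 for Mmp2 and 0.14 for Adamts8. It was -0.16 for Mmp17 with upper-quartile factors, and 0.19 for Adamts8 without Neat1 null libraries 1 and 3. With the replicate number as a block, Mmp17 had -0.16 and Adamts8 0.069; 2245 genes, 2 members higher and 10 lower were called, with Adamts6 lost (adjusted p = 0.0598) and Mmp25 gained (0.0244). The deviations of same-numbered libraries had r of 0.302, -0.248, -0.0133 and 0.0900 for numbers 1 to 4. The mean r with libraries of other numbers was -0.118, 0.0538, 0.0363 and -0.00371. It was higher within the same number for 1 and 4 and lower for 2 and 3, so the numbers were not taken to pair the libraries. In the simulated counts most 2-fold changes were not recovered. Far fewer genes were called there (128) than in these data (2356), so that recovery may not carry over.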
